A study of Mus musculus with 30 samples.

Results

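The 10 genes described here include *Tnf*, the receptor genes *Tnfrsf1a* and *Tnfrsf1b*, and the TNF-induced genes *Tnfaip3* and *Tnfaip2*. The others are the inhibitor gene *Nfkbia*, its relatives *Nfkbiz* and *Bcl3*, and the NF-kB subunit genes *Nfkb2* and *Relb*. The 10 were chosen by name for their place in TNF signalling and NF-kB feedback, with earlier results of these data known. Counts of called genes among them therefore describe the list and are no independent test of it. All 10 were found by symbol among the 48820 genes of the deposited count table. All 10 passed the filter on low counts in every comparison. The 30 RNA sequencing libraries came from 2 brain regions, hippocampus and frontal cortex, in a model of Gulf War Illness made in C57BL/6J males aged 8 to 12 weeks. Every mouse, the saline controls included, drank corticosterone (CORT, the main glucocorticoid of rodents) at 200 mg/L in 0.6% ethanol for 7 days. Each was then given diisopropyl fluorophosphate (DFP, an organophosphate acetylcholinesterase inhibitor) at 4 mg/kg on day 8. CORT was resumed for 7 days every other week until 5 weeks had passed. Mice then received saline, with tissue taken at 6 h, or bacterial lipopolysaccharide (LPS) at 0.5 mg/kg under the skin, with tissue taken at 6, 12 or 24 h. There were 3 saline libraries and 4 libraries per LPS time in each tissue, from 16 mice of which 14 gave both tissues. Since all groups used had received CORT and DFP, each LPS effect is one in animals with that history. Saline was collected at 6 h alone, so at 12 h and 24 h the effect of LPS and of collection time cannot be told apart.

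Tumour necrosis factor is a cytokine made mainly by microglia, macrophages and other leukocytes. It signals through 2 receptors, TNFR1 (*Tnfrsf1a*), found on most cells, and TNFR2 (*Tnfrsf1b*), found mainly on microglia, other leukocytes and endothelium. Receptor signalling, like LPS sensing by TLR4, activates the IkB kinases, which mark the inhibitor IkB-alpha (*Nfkbia*) for destruction and release NF-kB into the nucleus. NF-kB then induces restraints of its own, IkB-alpha and the ubiquitin-editing enzyme A20 (*Tnfaip3*). It also induces the nuclear IkB-like proteins Bcl-3 (*Bcl3*) and IkB-zeta (*Nfkbiz*). Further targets are *Nfkb2* and *Relb*, whose products pair in the slower non-canonical arm.

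Promoter sequence is shown for the 4 genes whose RefSeq windows hold a match to the kappaB consensus, the DNA element that NF-kB binds, because they include *Bcl3* and *Nfkb2*, called higher in every comparison with saline, *Tnfaip3*, called higher in 1, and *Nfkbia*, called lower in the hippocampus. Each stretch runs from 140 bases before to 30 bases after an annotated start site (RefSeq, GRCm38.p6), 5′ to 3′ on the gene's strand, and capitals mark matches to the consensus on either strand.
Bcl3, chr7:19822726-19822895, minus strand: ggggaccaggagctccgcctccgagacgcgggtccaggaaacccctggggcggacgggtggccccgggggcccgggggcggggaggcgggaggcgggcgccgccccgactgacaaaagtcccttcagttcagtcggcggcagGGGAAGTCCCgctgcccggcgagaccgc
Nfkb2, chr19:46304597-46304766, plus strand: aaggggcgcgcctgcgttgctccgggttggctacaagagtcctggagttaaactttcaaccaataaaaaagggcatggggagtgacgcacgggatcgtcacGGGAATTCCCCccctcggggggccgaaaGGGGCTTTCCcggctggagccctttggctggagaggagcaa
Tnfaip3, chr10:19015381-19015550, minus strand: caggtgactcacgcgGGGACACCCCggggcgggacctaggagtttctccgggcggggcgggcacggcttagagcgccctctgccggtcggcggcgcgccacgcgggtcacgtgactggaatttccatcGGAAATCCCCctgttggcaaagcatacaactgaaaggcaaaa
Nfkbia, chr12:55492618-55492787, minus strand: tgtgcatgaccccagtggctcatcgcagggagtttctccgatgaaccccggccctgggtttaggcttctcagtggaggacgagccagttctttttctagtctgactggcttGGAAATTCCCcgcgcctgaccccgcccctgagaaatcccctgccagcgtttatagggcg
The first capital run of *Nfkb2* holds overlapping matches. Windows of 300 bases were found for 8 of the 10 genes (11 windows, 6 with a match), and 1480 of 32851 such windows in the whole table (4.51%) held a match. By gene, 4 of the 8 held a match. *Nfkb2* has windows that overlap and share a match, so the windows are not separate counts. The genes were also chosen for their place in NF-kB feedback. A match is a string of letters and was not tested as a binding site.

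Totals ran from 16826882 to 33034295 counts per library. Genes that mark each region went with the labels: 5 hippocampal genes summed to 454 to 589 CPM (edgeR depth-normalised counts, scaled by TMM) in hippocampal and 134 to 205 CPM in cortical libraries, and 5 cortical genes to 119 to 170 and 444 to 702 CPM. The sum of 7 neutrophil genes was 0.175 to 0.507 CPM in hippocampal saline libraries (*Ly6g*, *Camp* and *Retnlg* at 0). At 6 h after LPS it was 8.23 to 9.52 CPM there, with *Ly6g* still at 0. In the cortex it was 0.179 to 1.19 (*Ly6g* at 0) and 14.9 to 20.2 CPM. Of the 7, 5 were tested in the hippocampus and 4 in the cortex, and 4 were called higher at 6 h in each. The sum of 6 microglial genes was 152 to 197 CPM in hippocampal saline libraries and 272 to 299 CPM at 24 h, where all 6 were called higher. In bulk tissue a change in the number of cells of a type and a change in RNA per cell cannot be told apart, and the part of these cell types in the results below was not tested. Genes for T and B cells summed to at most 0.445 CPM in any library.

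4 cortical libraries went against their time labels. This was read from genes outside the 10 that differed between 24 h and 12 h in the hippocampus (153 higher and 214 lower at 24 h, edgeR adjusted p under 0.05). For each library, the mean log2 CPM of the lower genes was subtracted from that of the higher genes, and the mean of the tissue's saline libraries from the result. In the hippocampus, where these genes were chosen, the measure was -0.77 to -0.56 in the 6 h libraries, -0.75 to -0.55 in the 12 h libraries and 0.47 to 0.55 in the 24 h libraries. In the cortex it was -0.8 to -0.62 at 6 h, so the measure sets 24 h apart but does not separate 12 h from 6 h. In the cortex, the libraries labelled 12 h gave -0.56 (A258), -0.61 (A259), 0.39 (A260) and 0.27 (A261). The libraries labelled 24 h gave 0.38 (A274), 0.29 (A275), -0.55 (A276) and -0.71 (A278). So A260 and A261 lay beside the other tissue's 24 h libraries, and A276 and A278 beside its 6 h and 12 h libraries, while the hippocampal libraries of the same 4 mice lay with their own labels. The microglial sum split the same way, at 193 and 190 CPM in A258 and A259 but 264 and 320 in A260 and A261, and at 295 and 290 in A274 and A275 but 213 and 217 in A276 and A278. Microglial genes were not kept out of the genes behind the measure, so the microglial sum is not a separate reading of the split. The cause of the split was not tested. The labels were kept, and the cortical results of the 10 genes at 12 h and 24 h are given also without these 4 libraries, which leaves 2 per time. That choice was made after seeing the data and by the hippocampal time course. Cortical 24 h against 12 h was therefore not tested on the libraries that remain, and a likeness of their course to the hippocampal one is in part made by the choice.

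**Figure D1:**
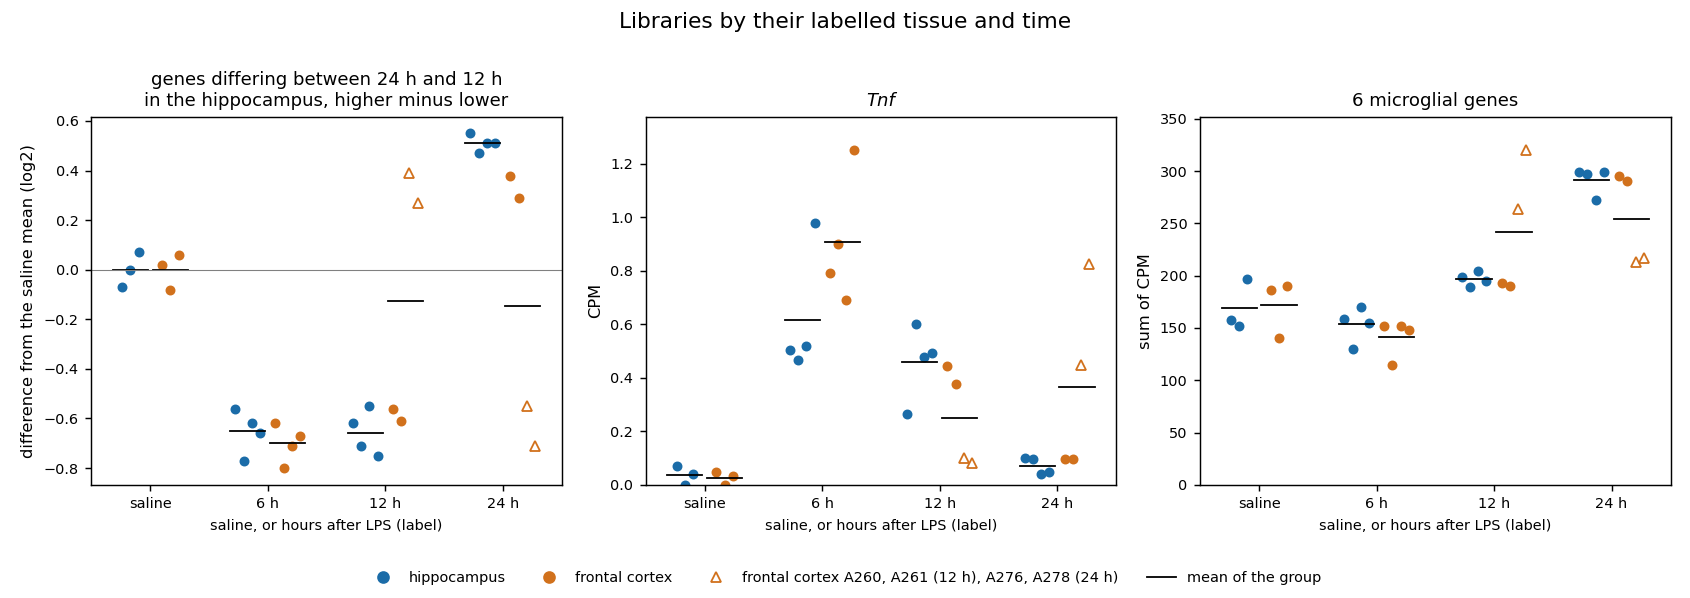
Values of each library by labelled group, in the hippocampus (blue) and frontal cortex (orange); bars are group means. Left, mean log2 CPM of 153 genes minus that of 214 genes (see the axis), relative to saline; middle, Tnf in CPM; right, summed CPM of 6 microglial genes. In all 3 panels the open triangles (cortex A260 and A261, labelled 12 h, and A276 and A278, labelled 24 h) lie away from the other 2 cortical libraries of their label.

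With CPM divided by exon length in kilobases, so that genes can be compared, *Nfkbia* was the most abundant of the 10 after saline, at 19.4 ± 3.45 CPM per kb in the hippocampus and 18.6 ± 6.06 in the cortex (SD, n = 3). *Tnfrsf1a* came next at 3.68 ± 0.255 and 4.09 ± 0.0552 CPM per kb. *Relb* followed in both tissues, at 2.16 ± 0.174 and 1.26 ± 0.12 CPM per kb. *Nfkbiz*, *Tnfaip3*, *Tnfrsf1b*, *Tnfaip2* and *Nfkb2* lay between 0.495 and 1.13 CPM per kb in both tissues, with neighbours in the order often within 1 SD of each other. *Bcl3* (0.0784 ± 0.0316 and 0.122 ± 0.0513) and *Tnf* (0.0221 ± 0.0214 and 0.0164 ± 0.0153) were lowest. At 6 h after LPS *Bcl3* stood at 1.64 ± 0.156 CPM per kb in the hippocampus and 2.2 ± 0.339 in the cortex (SD, n = 4), rank 4 and rank 3 of the 10, while *Tnf* remained last in all 8 groups.

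Before LPS, 3 of the 10 were higher in the hippocampus than in the cortex and 1 was lower, where 19.9% of 17650 genes tested were called higher and 17.2% lower (edgeR, all 30 libraries in 1 fit). *Relb* was at 7.62, 8.73 and 8.85 CPM in the hippocampus and 4.37, 5.24 and 5.1 CPM in the cortex, a log2 difference of 0.77 ± 0.12 (SE, adjusted p = 3.65e-06). *Tnfaip3* was at 6.82 to 7.99 against 4.08 to 5.11 CPM (0.68 ± 0.16, adjusted p = 0.000823), and these groups did not overlap. *Nfkbiz* differed by 0.50 ± 0.15 (adjusted p = 0.00643), a call lost without cortical A223 (adjusted p = 0.052) or A226 (0.0501). *Tnfaip2*, a TNF-induced gene whose product acts in membrane and exocyst traffic, was lower in the hippocampus, by -0.50 ± 0.17 (adjusted p = 0.0174). Its call was lost without hippocampal A222 (adjusted p = 0.122) or A224 (0.0609) and with the mouse as a block (log2 difference -0.34, adjusted p = 0.2). *Nfkbia* did not pass (0.08 ± 0.16, adjusted p = 0.745) but was called higher in the hippocampus without cortical A224 (0.36, adjusted p = 0.0425).

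After LPS 4 to 7 of the 10 genes were called higher, and 1 was called lower in the hippocampus alone. In the hippocampus edgeR called 6 higher and 1 lower at 6 h, 5 higher and 1 lower at 12 h, and 4 higher and 1 lower at 24 h. Of 17289 genes tested there, 2.96%, 6.07% and 6.76% were called higher and 2.15%, 6.28% and 6.6% lower at the 3 times. In the cortex it called 7, 5 and 5 of the 10 higher and 0 lower, where 2.3%, 4.13% and 3.73% of 17111 genes were called higher and 1.2%, 2.99% and 2.38% lower. Without the 4 cortical libraries the counts were 7, 6 and 4 higher and 0 lower, against 2.83%, 2.69% and 3.29% of 17166 genes called higher and 1.99%, 1.59% and 2.23% lower. The median log2 fold change of the 10 was 0.63, 0.59 and 0.43 in the hippocampus and 0.63, 0.66 and 0.66 in the cortex, beside medians over all genes between -0.004 and 0.013. Scaling by library totals alone raised the share of called genes that were higher from 49.2% to 66.1% and from 50.6% to 68.6% at 12 h and 24 h in the hippocampus. In the cortex it raised that share from 58% to 78.6% and from 61.1% to 78.5%.

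**Figure D2:**
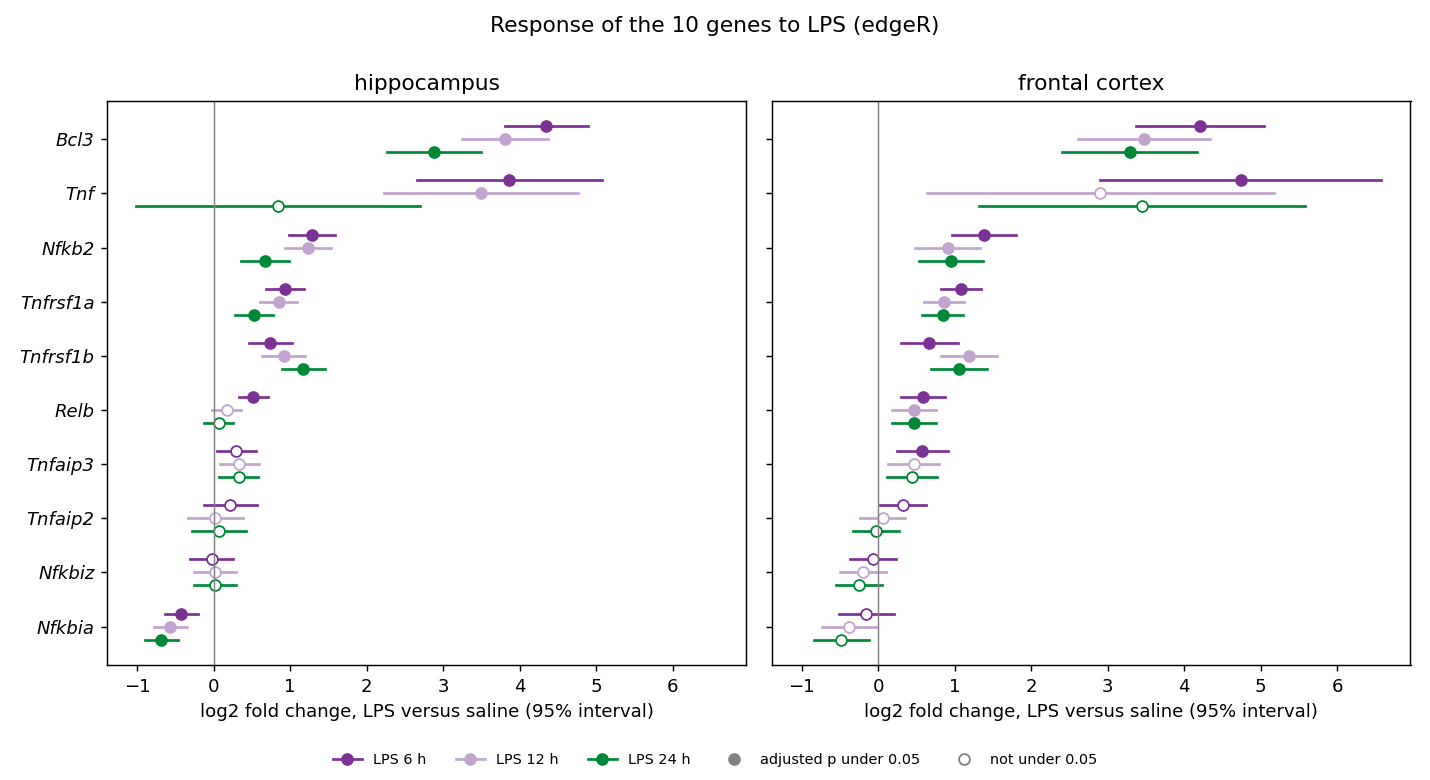
Log2 fold change of each gene after LPS against saline, with its 95% interval, at 6, 12 and 24 h (colours) in the hippocampus (left) and frontal cortex (right); filled points have an adjusted p under 0.05 in edgeR. Bcl3 lies far right of the other genes at all times, as does Tnf except at 24 h in the hippocampus, and Nfkbia lies left of 0 at all times in both tissues, with calls in the hippocampus alone.

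*Tnf*, the ligand (ENSMUSG00000024401.14, GRCm38 chr17:35199381-35202007, minus strand), was near the limit of detection after saline and rose at 6 h in both tissues. Hippocampal saline libraries A222, A224 and A226 held 2, 0 and 1 counts, or 0.0699, 0 and 0.039 CPM. At 6 h the hippocampus was at 0.502, 0.467, 0.519 and 0.979 CPM, every library above every saline library. The ratio of pooled counts was 16.5 (95% exact interval 5.35 to 82.7, counting error alone; edgeR log2 fold change 3.87 ± 0.58, adjusted p = 0.000111). Levels were 0.263, 0.602, 0.479 and 0.491 CPM at 12 h, a ratio of 12.8 (4.09 to 64.8; adjusted p = 0.000302). At 24 h they were 0.0986, 0.0947, 0.0415 and 0.046 CPM, with 2 of 4 libraries inside the saline range (ratio 1.9, 0.407 to 11.8; adjusted p = 0.615). With 3 saline counts in all, the ratios depend on single libraries. Without A222 they were 32.5 (5.58 to 1310), 25.2 (4.28 to 1020) and 3.74 (0.454 to 172) at the 3 times, and without A224 10.8 (3.5 to 54.1), 8.39 (2.68 to 42.4) and 1.24 (0.266 to 7.69).

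In the cortex *Tnf* was at 0.0496, 0 and 0.0311 CPM after saline and 0.79, 0.899, 0.692 and 1.25 CPM at 6 h, a ratio of 31.5 (8.42 to 265; adjusted p = 0.00328). The libraries labelled 12 h were at 0.445 (A258), 0.378 (A259), 0.0988 (A260) and 0.081 CPM (A261). Those labelled 24 h were at 0.0945 (A274), 0.0976 (A275), 0.447 (A276) and 0.826 CPM (A278). Each label thus held 2 libraries at 0.081 to 0.0988 CPM and 2 at 0.378 CPM or more. The lower libraries held 2 counts each, against 1, 0 and 1 in the saline libraries, so their place above saline rests on single counts. Of the higher libraries, A278 alone lay within the range of the 6 h libraries. A276 and A278 supplied 28 of the 32 counts (87.5%) of their label. In the hippocampus the same 2 mice had 1 count each. Neither label passed the test, with ratios of 8.75 (2.16 to 76.5; adjusted p = 0.129) at 12 h and 12.9 (3.29 to 111; adjusted p = 0.0516) at 24 h. The first passed with limma-voom (adjusted p = 0.048) and in a fit of both tissues (0.0453). The second passed in that fit (0.0105), with DESeq2 (0.0345), with library totals alone (0.0366), with no filter (0.0438) and without A274 (0.0248) or A275 (0.0287). Without the 4 libraries the log2 fold change was 3.59 ± 0.67 at 12 h (adjusted p = 0.00515) and 1.55 ± 0.93 at 24 h (adjusted p = 0.524).

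Both receptor genes rose in all 6 comparisons with saline. *Tnfrsf1a*, encoding the death-domain receptor TNFR1 (ENSMUSG00000030341.17, chr6:125349362-125362484, plus strand), was at 10.1, 8.83 and 9.66 CPM in the hippocampus after saline. It reached 17.8, 19.5, 18.8 and 17.1 CPM at 6 h, was at 13.9, 19.2, 16.4 and 18.9 at 12 h and at 12.8, 11.9, 16.9 and 13.3 CPM at 24 h, with no LPS library as low as a saline library. The log2 fold changes were 0.93 ± 0.12, 0.85 ± 0.12 and 0.53 ± 0.12 (adjusted p = 1.83e-05, 2.9e-05 and 0.00391). In the cortex *Tnfrsf1a* went from 10.5 to 10.8 CPM after saline to 18.4 to 24.6 CPM at 6 h, and the log2 fold changes were 1.08 ± 0.13, 0.86 ± 0.13 and 0.84 ± 0.13 (adjusted p = 4.42e-05, 0.000209 and 0.000298). Without the 4 libraries those at 12 h and 24 h were 0.95 ± 0.11 and 0.64 ± 0.12 (adjusted p = 0.000144 and 0.00392). A276 and A278 were the highest of their label, at 19.1 and 23.6 against 16.1 and 17 CPM.

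*Tnfrsf1b*, encoding TNFR2 (ENSMUSG00000028599.10, chr4:145213463-145246870, minus strand), moved on another course and was highest late. In the hippocampus it was at 2.97, 2.82 and 3.12 CPM after saline and 4.33, 5.27, 5.13 and 5.28 CPM at 6 h. It stood at 5.57, 4.47, 6.59 and 5.57 CPM at 12 h and 7.15, 5.83, 7.31 and 6.35 CPM at 24 h, every library above saline. The log2 fold changes were 0.74 ± 0.14, 0.91 ± 0.14 and 1.17 ± 0.14 (adjusted p = 0.00124, 5.04e-05 and 1.71e-06). At 24 h the microglial sum was also higher, as given above, and its part in the rise of *Tnfrsf1b* was not tested. In the cortex the gene was at 3.11 to 3.63 CPM after saline and 3.97 to 5.72 CPM at 6 h (0.67 ± 0.18, adjusted p = 0.0444). That call was lost without any 1 of saline A223, A224 or A226 or LPS A240, A242 or A243 (adjusted p = 0.0656 to 0.21) and with DESeq2 size factors (0.0501). The libraries labelled 12 h were at 6.83, 6.06, 8.5 and 8.26 CPM and those labelled 24 h at 8.6, 6.79, 5.46 and 6.43 CPM, so that here A260 and A261 were above, and A276 and A278 below, the others of their label. The log2 fold changes were 1.18 ± 0.17 and 1.06 ± 0.18 (adjusted p = 0.000209 and 0.000703), and 0.97 ± 0.17 and 1.23 ± 0.17 without the 4 libraries (adjusted p = 0.004 and 0.000555).

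The non-canonical subunit gene *Nfkb2*, which encodes p100, the precursor of p52 (ENSMUSG00000025225.14, chr19:46304320-46312385, plus strand), rose in all 6 comparisons. Hippocampal levels were 2.31, 2.16 and 2.34 CPM after saline and 4.75, 6.33, 5.5 and 5.6 CPM at 6 h. They were 5.41, 5.57, 4.71 and 5.65 CPM at 12 h and 3.6, 3.55, 2.99 and 4.32 CPM at 24 h. All LPS libraries lay above all saline libraries, and the 24 h libraries lay below those of 6 h and 12 h. The log2 fold changes were 1.28 ± 0.15, 1.24 ± 0.15 and 0.67 ± 0.15 (adjusted p = 2.62e-06, 1.86e-06 and 0.00306). In the cortex *Nfkb2* was at 2.58, 3.09 and 3.05 CPM after saline and 5.48, 9.68, 7.2 and 7.79 CPM at 6 h (1.38 ± 0.20, adjusted p = 0.00037). It was at 6.39, 6.29, 4.4 and 4.74 CPM under the 12 h label (0.91 ± 0.20, adjusted p = 0.00767) and 4.87, 5.27, 5.05 and 7.3 CPM under the 24 h label (0.95 ± 0.20, adjusted p = 0.00603). The call at 12 h was lost without saline A223 (adjusted p = 0.0501). Without the 4 libraries the changes were 1.11 ± 0.20 and 0.79 ± 0.21 (adjusted p = 0.00387 and 0.0368).

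Its partner *Relb*, encoding RelB (ENSMUSG00000002983.17, chr7:19606217-19629438, minus strand), gave a smaller and briefer rise in the hippocampus. It went from 7.62, 8.73 and 8.85 CPM after saline to 11.9, 12.4, 12.6 and 11.4 CPM at 6 h (0.52 ± 0.09, adjusted p = 0.000487). At 12 h it was at 8.67 to 10 CPM and at 24 h at 8.05 to 9.52 CPM, and neither passed (adjusted p = 0.268 and 0.701). In the cortex it was at 4.37 to 5.24 CPM after saline and 6.67 to 8.49 CPM at 6 h (0.59 ± 0.14, adjusted p = 0.0193), and the call was lost without saline A223 or A226 or LPS A243 (adjusted p = 0.0681 to 0.116). At 12 h the change was 0.46 ± 0.14 (adjusted p = 0.0482) and at 24 h 0.47 ± 0.14 (adjusted p = 0.0488). The 12 h call was lost without A223, A224, A226, A258, A259 or A261 (adjusted p = 0.0547 to 0.216). It was also lost with DESeq2 size factors (0.0559), with no filter (0.0577) and with the 2 groups alone (0.113). The 24 h call was lost without any 1 of the 3 saline or 4 LPS libraries (adjusted p = 0.0736 to 0.233). DESeq2 size factors (0.0541) and no filter (0.0645) lost it as well. Without the 4 doubted libraries the values were 0.60 ± 0.15 (adjusted p = 0.0359) and 0.38 ± 0.15 (adjusted p = 0.218).

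*Bcl3*, encoding the nuclear IkB-like cofactor Bcl-3 (ENSMUSG00000053175.17, chr7:19808462-19822770, minus strand), rose in all 6 comparisons with saline. In the hippocampus it was at 0.245, 0.104 and 0.234 CPM after saline (16 counts in all) and 4.06, 4.59, 3.79 and 3.75 CPM at 6 h. At 12 h it was at 2.63, 2.56, 2.28 and 3.6 CPM and at 24 h at 1.28, 1.52, 1.37 and 1.66 CPM, so that the 3 times did not overlap with each other or with saline. The ratios of pooled counts to saline were 21.1 (95% exact interval 12.8 to 37.4), 14.4 (8.71 to 25.7) and 7.56 (4.48 to 13.6). The edgeR log2 fold changes were 4.35 ± 0.26, 3.81 ± 0.27 and 2.88 ± 0.30 (adjusted p = 1.73e-10, 1.26e-09 and 2.85e-07).

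In the cortex *Bcl3* was at 0.447, 0.238 and 0.218 CPM after saline (20 counts) and 4.21, 6.03, 5.91 and 5.66 CPM at 6 h, a ratio of 18.9 (12.1 to 31.3; log2 fold change 4.21 ± 0.40, adjusted p = 6.92e-06). The libraries labelled 12 h were at 3.96 (A258), 4.21 (A259), 2.47 (A260) and 2.51 CPM (A261), a ratio of 11.4 (7.23 to 18.9; adjusted p = 2.99e-05). Those labelled 24 h were at 1.75 (A274), 2 (A275), 3.22 (A276) and 4.55 CPM (A278), a ratio of 10 (6.35 to 16.7; adjusted p = 6.73e-05). As with *Tnf*, A260 and A261 were the low pair of their label and A276 and A278 the high pair. Without these 4 the log2 fold changes went from 3.48 ± 0.41 to 3.77 ± 0.27 at 12 h and from 3.29 ± 0.42 to 2.65 ± 0.31 at 24 h (adjusted p = 2.68e-06 and 0.000117). Genes annotated on the opposite strand overlap *Bcl3* (Gm16175, Gm16174), *Nfkb2* (AC114539.1, Psd) and *Tnfaip2* (Gm40578). The strand setting of the counter is not given in the sources used here, so a share of their reads may belong to those partners.

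*Nfkbia*, encoding IkB-alpha and a textbook NF-kB target (ENSMUSG00000021025.7, chr12:55489410-55492647, minus strand), was lower after LPS in the hippocampus at all 3 times. It was at 34.1, 34.8 and 24.9 CPM after saline and 19.3, 24, 25.6 and 25 CPM at 6 h, where 3 of 4 LPS libraries lay within 1 CPM of saline A226. At 12 h it was at 21.3, 19.9, 21.7 and 21.3 CPM and at 24 h at 17.7, 19.7, 19.4 and 21 CPM, below all saline libraries. The log2 fold changes were -0.43 ± 0.10, -0.57 ± 0.10 and -0.68 ± 0.11 (adjusted p = 0.018, 0.00086 and 0.000128). The call at 6 h was lost without saline A222 (adjusted p = 0.128) or A224 (0.12) or LPS A240 (0.0503), in a fit of both tissues (0.156) and in a fit of the 2 groups alone (0.161). The calls at 12 h and 24 h held under every alternative run. In the cortex *Nfkbia* was at 23.8, 41.2 and 24.8 CPM after saline, with A224 far above the others, and at 20 to 32.9, 20.7 to 24.9 and 19.9 to 22.9 CPM at the 3 times. None passed, at -0.15 ± 0.17, -0.38 ± 0.17 and -0.48 ± 0.17 (adjusted p = 0.638, 0.222 and 0.125), although the libraries labelled 24 h all lay below saline and passed in the fit of both tissues (adjusted p = 0.0465). Without the 4 libraries the last 2 were -0.47 ± 0.24 and -0.54 ± 0.24 (adjusted p = 0.441 and 0.289).

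*Nfkbiz*, the gene of the nuclear IkB-like protein IkB-zeta (ENSMUSG00000035356.16, chr16:55811375-55838899, minus strand), did not pass in any of the 6 comparisons. Its hippocampal libraries ran from 5.21 to 5.96 CPM after saline and 4.63 to 6.91 CPM after LPS, and the log2 fold changes lay between -0.03 and 0.02 with 95% intervals within -0.30 and 0.30. In the cortex they were -0.07, -0.20 and -0.26 (adjusted p = 0.808, 0.479 and 0.419), and the last 2 were -0.20 and -0.25 without the 4 libraries (0.721 and 0.574). *Tnfaip3*, encoding A20 (ENSMUSG00000019850.11, chr10:19000910-19015657, minus strand), was at 6.82 to 7.99 CPM in hippocampal saline libraries and 7.59 to 11.5 CPM after LPS. Its log2 fold changes of 0.30, 0.33 and 0.33 did not pass (adjusted p = 0.237, 0.0823 and 0.0841), and those at 12 h and 24 h passed with library totals alone (0.0474 and 0.044), the latter also without A274 (0.0234). In the cortex *Tnfaip3* rose at 6 h from 5.11, 5.06 and 4.08 to 5.69, 6.72, 6.78 and 8.68 CPM (0.58 ± 0.16, adjusted p = 0.0485). That call was lost without any 1 of the 3 saline libraries or LPS A241, A242 or A243 (adjusted p = 0.0547 to 0.295). *Tnfaip3* also missed there with DESeq2 size factors (0.0574), a stricter filter on low counts (0.0529) and the 2 groups alone (0.0914). At 12 h and 24 h it did not pass (0.46 and 0.44, adjusted p = 0.0896 and 0.126; 0.076 and 0.174 without the 4 libraries), though at 12 h it passed with library totals alone, with limma-voom and in the fit of both tissues (adjusted p = 0.0421 to 0.0462). *Tnfaip2* (ENSMUSG00000021281.15, chr12:111442469-111455018, plus strand) did not pass in any comparison with saline, with log2 fold changes of -0.03 to 0.32 and saline levels of 2.69 to 4.09 CPM in the hippocampus and 4.58 to 4.87 CPM in the cortex. Without the 4 libraries its cortical values at 12 h and 24 h were -0.12 and -0.07 (adjusted p = 0.86 and 0.908).

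**Figure D3:**
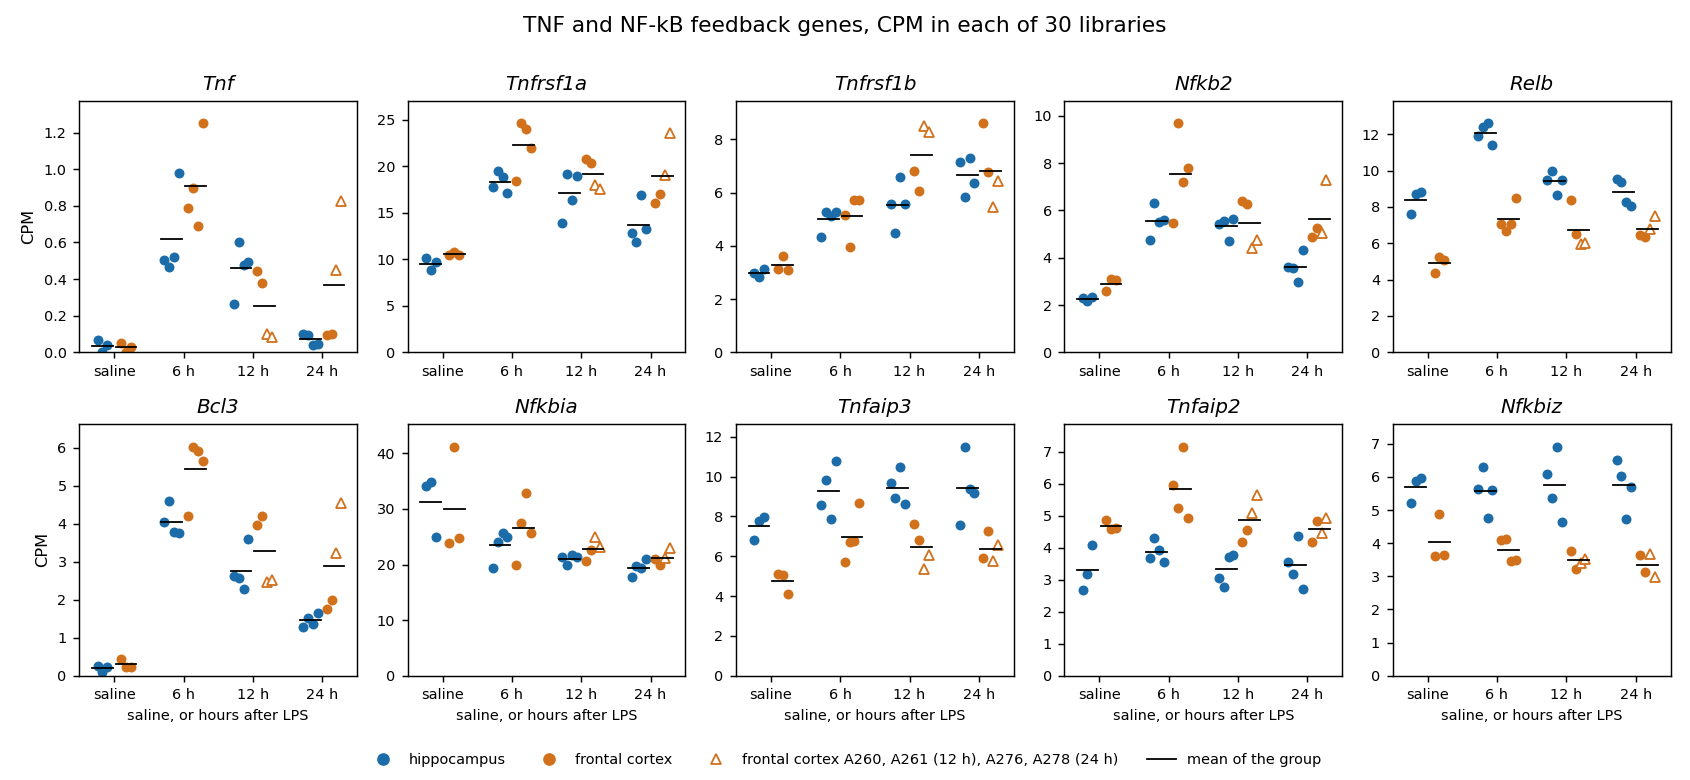
CPM of each gene in each of 30 libraries, by labelled group, in the hippocampus (blue) and frontal cortex (orange); bars are group means and open triangles the 4 cortical libraries that went against their time labels. Tnf and Bcl3 are highest at 6 h and lower at each later time in the hippocampus, Tnfrsf1b is highest at 24 h there, and hippocampal Nfkbia is lower at 12 h and 24 h than in any saline library.

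The times after LPS were then compared with each other. In the hippocampus 1 of the 10 was lower at 12 h than at 6 h and 0 were higher (1.14% of genes called higher, 1% lower). That was *Relb*, at -0.35 ± 0.08 (adjusted p = 0.024), a call lost without any 1 of A240, A241, A242, A258, A260 or A261 (adjusted p = 0.0515 to 0.0873) or in the fit of both tissues (0.0717). *Bcl3* missed (-0.54 ± 0.16, adjusted p = 0.0894) and passed without A261 (-0.70, adjusted p = 0.029). From 12 h to 24 h 3 fell and 0 rose (0.885% higher, 1.26% lower). *Tnf* fell by 2.66 ± 0.53 (adjusted p = 0.00673), *Bcl3* by 0.93 ± 0.18 (adjusted p = 0.0061) and *Nfkb2* by 0.56 ± 0.13 (adjusted p = 0.0191), and in each the 24 h libraries were all below the 12 h libraries. The *Nfkb2* call was lost without A261, A274 or A276 (adjusted p = 0.0503 to 0.0712) and with the 2 groups alone (0.0554), and all 3 were lost in the fit of both tissues (0.0865, 0.104 and 0.13). *Tnfrsf1a*, at -0.32 ± 0.11 (adjusted p = 0.135), passed without A258 (0.0437) or A276 (0.0127) and with no filter (0.0106).

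From 6 h to 24 h, 5 of the 10 were lower and 1 was higher in the hippocampus (4.57% of genes called higher, 4.92% lower). *Tnf* fell by 3.03 ± 0.50 (adjusted p = 0.000328), *Bcl3* by 1.47 ± 0.18 (adjusted p = 7.07e-06), *Nfkb2* by 0.61 ± 0.13 (adjusted p = 0.00336) and *Relb* by 0.45 ± 0.08 (adjusted p = 0.00104). *Tnfrsf1a* fell by 0.40 ± 0.11 (adjusted p = 0.0181), lost without A241, A242, A274, A275 or A278 (adjusted p = 0.0508 to 0.0613). The other receptor gene, *Tnfrsf1b*, was the 1 that rose, by 0.43 ± 0.12 (adjusted p = 0.0259). Its call was lost without A240, A274 or A276 (adjusted p = 0.0681 to 0.0994) and in the fit of both tissues (0.0703). The 2 receptor genes thus went opposite ways between 6 h and 24 h in the hippocampus. Library totals alone raised the share of called genes that were higher from 53.2% to 63.5% at 12 h against 6 h and from 48.2% to 60.6% at 24 h against 6 h.

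In the cortex as labelled, 0 of the 10 passed in either direction between any 2 times. From 6 h to 12 h 0.614% of genes were called higher and 0.614% lower, and 4 of the 10 had an unadjusted p under 0.05 (*Tnf*, *Tnfrsf1b*, *Nfkb2* and *Bcl3*). From 6 h to 24 h the shares called were 0.789% higher and 1.04% lower. There 6 of the 10 had an unadjusted p under 0.05, beside 2669 of 17111 genes. Of these 6, DESeq2 called 1 (*Bcl3*) and limma-voom 2 (*Bcl3* and *Tnf*). *Bcl3* also passed without A278 (-1.23, adjusted p = 0.0138). From 12 h to 24 h edgeR called 0% of all genes in either direction, as did DESeq2, with 310 genes and 0 of the 10 at an unadjusted p under 0.05. Library totals alone raised the share of called genes that were higher from 50% to 71.1% at 12 h and from 43.1% to 67.4% at 24 h, each against 6 h. Without the 4 libraries, 3 of the 10 were lower at 24 h than at 6 h, against 1.69% of genes called lower and 1.74% higher. These were *Tnf* (-3.17 ± 0.50, adjusted p = 0.00272), *Bcl3* (-1.54 ± 0.20, adjusted p = 0.000902) and *Tnfrsf1a* (-0.43 ± 0.11, adjusted p = 0.0437). The libraries left out had been chosen by the hippocampal time course, so these calls give no separate support to it. At 12 h against 6 h 0 passed without the 4 libraries.

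No gene of the 10 passed a test of a different LPS response in the 2 tissues, by edgeR at 6, 12 or 24 h (0%, 0.0397% and 0.068% of all genes called higher in the hippocampus and 0%, 0.0567% and 0.0567% lower). Of 17650 genes, 1031, 1744 and 1484 had an unadjusted p under 0.05 at the 3 times, and DESeq2 called 0 at 6 h. Of the 10, *Relb* at 24 h was the 1 with an unadjusted p under 0.05 (0.0166, adjusted p = 0.474), at -0.40 with a 95% interval of -0.72 to -0.08. Beside those counts, 1 of 10 does not set the 10 apart. Without the 4 cortical libraries the *Relb* difference was -0.29 (-0.63 to 0.05) at 24 h and -0.425 (-0.759 to -0.091) at 12 h (edgeR adjusted p = 0.77 and 0.604). At 6 h the difference (hippocampus minus cortex) was 0.15 for *Bcl3* (-1.01 to 1.32), -0.13 for *Tnfrsf1a* (-0.50 to 0.23), 0.09 for *Tnfrsf1b* (-0.37 to 0.55) and -0.08 for *Nfkb2* (-0.59 to 0.43). For *Nfkbia*, called in the hippocampus alone, it was -0.26 (-0.70 to 0.18), -0.19 (-0.63 to 0.25) and -0.21 (-0.65 to 0.24) at the 3 times, so a difference between tissues was not shown. For *Tnf* at 24 h it was -2.61 (-6.11 to 0.88), and -0.70 (-3.46 to 2.05) without the 4 cortical libraries. Library totals alone lowered the share of called genes higher in the hippocampus from 41.2% to 23.5% at 12 h (7 higher and 10 lower called here), where DESeq2 size factors gave 30% and DESeq2 56.6%, and from 54.5% to 36.4% at 24 h (12 higher and 10 lower).

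A list of 60 other genes of the pathway, 56 of them tested, was read beside the 10. It too was chosen with earlier results of these data known, so its counts are descriptive. In the hippocampus 12, 18 and 13 were called higher and 0, 2 and 2 lower at 6, 12 and 24 h, with median log2 fold changes of 0.09, 0.21 and 0.15. Over all genes 2.96%, 6.07% and 6.76% were called higher and 2.15%, 6.28% and 6.6% lower there. In the cortex 11, 12 and 11 were called higher and 0 lower (medians 0.22, 0.19 and 0.19), beside 2.3%, 4.13% and 3.73% higher and 1.2%, 2.99% and 2.38% lower over all genes. Without the 4 cortical libraries these counts were 13, 9 and 6 higher and 0 lower. In that fit 2.83%, 2.69% and 3.29% of all genes were called higher and 1.99%, 1.59% and 2.23% lower. Of 12 textbook NF-kB targets 11 were tested, and 7 or 8 of them rose in each comparison with saline. In the cortex without the 4 libraries 8, 6 and 5 rose.

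Adhesion molecules, chemokines and a cytokine had the largest fold changes of the list at 6 h. *Sele*, encoding the adhesion molecule E-selectin, had 2 counts over the 3 saline libraries of each tissue. At 6 h it was at 3.51 to 6.91 CPM in the hippocampus and 4.32 to 9.2 CPM in the cortex (edgeR adjusted p = 9.35e-08 and 1.26e-05). *Ccl2*, a monocyte chemokine, had 3 saline counts in each tissue and was at 1.09 to 3.14 and 1.26 to 4.81 CPM at 6 h (adjusted p = 0.00187 and 0.00125). *Il1b*, encoding the cytokine interleukin-1 beta, went from 0.0348 to 0.105 CPM after saline to 1.93 to 6.46 CPM at 6 h in the hippocampus and from 0.298 to 0.596 to 2.58 to 8.68 CPM in the cortex (adjusted p = 5.5e-06 and 0.00183). *Ccl2* and *Il1b* can also be made by leukocytes, and the neutrophil sum given above was higher at 6 h too. Its part was not tested. *Cxcl1*, a neutrophil chemokine, had 0 counts in the 3 cortical saline libraries and was at 0.369 to 1.06 CPM there at 6 h (adjusted p = 0.000464). *Icam1*, an adhesion molecule, rose by 2.07 ± 0.25 and 2.06 ± 0.27 (adjusted p = 3.66e-05 and 0.000162). *Irf1*, a transcription factor of the interferon response, rose by 0.84 ± 0.13 and 1.02 ± 0.24 (adjusted p = 0.000129 and 0.0253). Not all textbook targets moved up: *Sod2*, a mitochondrial superoxide dismutase, was at 0.04 ± 0.05 and 0.01 ± 0.06 (adjusted p = 0.82 and 0.942). *Ptgs2*, encoding cyclooxygenase-2, was lower in the hippocampus at 12 h (-0.25 ± 0.08, adjusted p = 0.0294) and 24 h (-0.26 ± 0.08, adjusted p = 0.0196).

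Among 12 other feedback regulators, 11 tested, few were called. Over all genes 2.3% to 6.76% were called higher and 1.2% to 6.6% lower in the 6 comparisons with saline. With 11 genes tested, few calls do not set this group apart from those shares. *Zfp36*, encoding tristetraprolin, which destabilises *Tnf* mRNA, rose at 6 h by 1.13 ± 0.14 in the hippocampus and 1.18 ± 0.18 in the cortex (adjusted p = 1.14e-05 and 0.000673). At 12 h it was at 0.35 ± 0.15 and 0.42 ± 0.19 and no longer passed (adjusted p = 0.142 and 0.218), nor without the 4 cortical libraries (0.51 ± 0.16, adjusted p = 0.111). In the hippocampus *Tnip1*, an A20-binding protein, was lower at 24 h (-0.24 ± 0.07, adjusted p = 0.0139), and *Tnfaip8l2*, a leukocyte inhibitor of TLR signalling, was higher (1.1 ± 0.23, adjusted p = 0.00163). *Dusp1*, a MAP kinase phosphatase, was lower at 12 h (-0.41 ± 0.11, adjusted p = 0.0149). *Cyld* and *Otulin*, 2 deubiquitinases, did not pass at any time. Against saline, of the 3 other IkB genes *Nfkbie* (IkB-epsilon) was called once, in the cortex at 6 h (0.77 ± 0.19, adjusted p = 0.0283), and *Nfkbib* and *Nfkbid* not at all.

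Upstream genes were read against saline too, where 2.3% to 6.76% of all genes were called higher and 1.2% to 6.6% lower. Of the 3 remaining subunit genes, *Rela* rose in the hippocampus at 6 h (0.30 ± 0.07, adjusted p = 0.00676) and 12 h (0.24 ± 0.07, adjusted p = 0.0186), and *Nfkb1* and *Rel* were not called in any of the 6 comparisons. Of 6 IkB kinase genes, *Map3k14*, encoding the kinase NIK of the non-canonical arm, rose in the hippocampus at 6 h (0.88 ± 0.13, adjusted p = 6.92e-05) and 12 h (0.56 ± 0.13, adjusted p = 0.00466). Lymphotoxin-beta receptor, *Ltbr*, which feeds that arm, rose at 6 h in both tissues (0.54 ± 0.12 and 0.73 ± 0.12, adjusted p = 0.00485 and 0.00116). Of 12 receptor-proximal adaptors and kinases 1 was called against saline, at 1 time: *Traf1* in the hippocampus at 12 h (1.07 ± 0.35, edgeR adjusted p = 0.0467). With 12 genes, so low a count does not set this group apart from the shares over all genes. In the fit without the 4 cortical libraries, *Birc3*, an inhibitor of apoptosis (0.92 ± 0.22, adjusted p = 0.0305), and *Map3k14* (0.41 ± 0.11, adjusted p = 0.0468) also passed in the cortex at 6 h.

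Of 5 genes of the cell death arm of TNFR1, 0 were called against saline at 6 h in either tissue. With 2.96% and 2.3% of all genes called higher there, 0 of 5 does not set them apart. In the hippocampus 4 rose at 12 h and 3 at 24 h (6.07% and 6.76% of all genes). In the cortex 3 rose at each of these labels (4.13% and 3.73%), or 2 and 1 without the 4 libraries (2.69% and 3.29%). Tested directly against 6 h, 0 of 5 passed at 12 h in either tissue (1.14% and 0.614% of all genes called higher). At 24 h against 6 h these shares were 4.57% and 0.789%. At 24 h against 6 h 1 passed in the hippocampus, *Casp8* (0.76 ± 0.16, adjusted p = 0.00317), and 0 in the cortex, where *Casp8* passed without the 4 libraries (0.85 ± 0.18, adjusted p = 0.0161), so a later rise of the others was not shown. *Casp8*, the initiator caspase, rose in the hippocampus by 0.65 ± 0.17 at 12 h and 0.87 ± 0.17 at 24 h (adjusted p = 0.0128 and 0.000845). *Ripk3*, the kinase of necroptosis, rose there by 1.38 ± 0.38 and 1.58 ± 0.37 (adjusted p = 0.0173 and 0.00489), and in the cortex by 2.30 ± 0.48 and 2.09 ± 0.49 (adjusted p = 0.00475 and 0.013), the latter lost without the 4 libraries (1.89 ± 0.60, adjusted p = 0.0975). *Mlkl*, the necroptosis effector, passed at 12 h (1.62 ± 0.53, adjusted p = 0.0452) and missed at 24 h (1.49 ± 0.54, adjusted p = 0.0699). The microglial sum was higher at 24 h too, and its part in these rises was not tested.

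**Figure D4:**
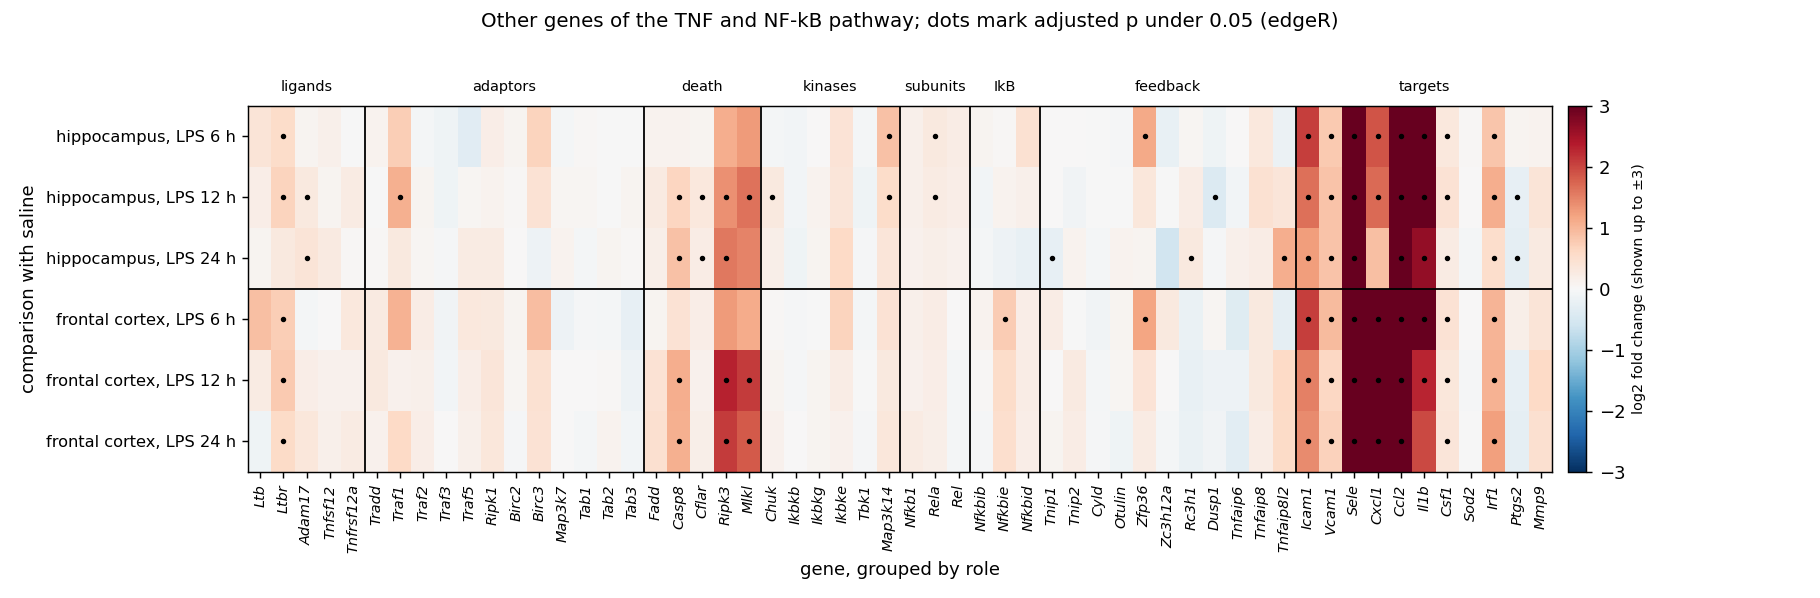
Log2 fold change against saline (colour, shown up to ±3) of 56 tested pathway genes in 6 comparisons; black lines part the roles and the tissues, and dots mark an adjusted p under 0.05 in edgeR. Dots gather among the targets in every comparison, the cell death genes carry dots in the rows of 12 h and 24 h, and the adaptors are almost without dots.

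Genes whose log2 fold changes were nearest to those of a member over the 6 comparisons with saline, by root mean square difference, were sought among 13353 genes. The 6 comparisons share 2 sets of saline libraries and hold the 4 cortical libraries. Nearest to *Nfkbia* were *Epha10* (0.066), *Pdk4* (0.069) and *Gpt2* (0.078), and nearest to *Tnfrsf1a* were *Slc16a3* (0.094), *Cyyr1* (0.131) and *Plek* (0.131). Nearest to *Tnfrsf1b* were *Arpc1b* (0.099), *Xaf1* (0.107) and *Fxyd5* (0.121). Matches were farther off for *Bcl3*, whose nearest gene *Msr1* differed by 0.438, and farthest for *Tnf*, whose nearest gene *Gpr84* differed by 0.976. *Tnf* itself lies below the level set for candidates, with 3 and 2 saline counts in the 2 tissues. How much of its distance is count noise was not tested.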

How the data were processed

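Gene-level read counts, deposited by the authors as whole numbers, came from stranded, poly(A)-selected libraries (per the labels' protocols). Trim Galore 0.4.1, STAR 2.6.0a, FastQC and DESeq2 with GRCm38 are named in the submitters' processing notes. Which counter and annotation release were used is not given in the sources used here. The authors had excluded 1 hippocampal saline library for quality, per the labels.

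The 10 genes and all gene lists were chosen with earlier results of these data known. Each tissue's 15 libraries were fitted with edgeR 4.0.16 in R 4.3.3 (filterByExpr, minimum count 10 and total 15; TMM; robust quasi-likelihood test), which gave 12 comparisons, and all 30 libraries gave 4 between tissues. Adjusted p values are two-sided, by Benjamini-Hochberg over all genes tested, with a threshold of 0.05. Standard errors follow log2 fold changes. CPM use TMM factors over 30 libraries, and a fixed 0.1 CPM was added before log2 for the check of time labels. Ratios of pooled counts, given where saline held at most 30 counts, carry exact intervals for counting error alone, and depth limits them. Replicates are separate mice; in all 42 pairs within groups the counts differed beyond sampling noise (chi-square of 2.232 to 25.02 a gene). Mouse codes pair the tissues of 14 mice, whose deviations correlated with a median r of 0.102 (-0.0542 to 0.291). Symbols, coordinates and lengths are from GENCODE M21 (40692 of 48820 identifiers with the same version; *Nfkbia*, *Nfkbiz* and *Nfkb2* matched without it). Alternatives used DESeq2 1.42.0 and limma 3.58.1, other scalings and filters, fits of fewer or more libraries, a block for the mouse, and, added after seeing the data, the fit without 4 cortical libraries. On simulated data only the edgeR test of the hippocampus at 6 h against saline was run, with the same spread for every gene. Changes in genes with few counts, the cortex and the other tools were not simulated. Of the pathway list, the text names up to 4 called genes per comparison with saline by absolute log2 fold change, and examples of each role.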

Additional observations from a re-analysis of the deposited data

Results flagged for a closer look

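Of 60 groups of 4 libraries checked (10 genes, 2 tissues, 3 times), 3 held 1 library far from the other 3 by Dixon's 95% criterion, where chance alone gives about 1 in 20. Hippocampal *Tnf* at 6 h after LPS was at 0.979 CPM in A243 and 0.467 to 0.519 CPM in the others, a gap of 0.9 of the whole range. The same mouse was also highest in the cortex at 6 h, at 1.25 CPM. Hippocampal *Tnfrsf1b* at 6 h was at 4.33 CPM in A240 and 5.13 to 5.28 CPM in the others, a gap of 0.851 of the range. Cortical *Nfkb2* under the 24 h label was at 7.3 CPM in A278 and 4.87 to 5.27 CPM in the others, a gap of 0.834 of the range, and A278 is 1 of the 4 cortical libraries whose values went against their time label.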

How the results depend on the processing

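Of 550 recomputed counts of called genes among the 10, 515 stayed within 1.5 times the count given, and of 2722 recomputed gene values 0 reversed a call, 74 lost one and 36 gained one. In a single fit of both tissues, hippocampal counts of lower genes were 0 in place of 1 at 6 h against saline, 0 in place of 1 at 12 h against 6 h and 0 in place of 3 at 24 h against 12 h, and 0 in place of 1 was higher at 24 h against 6 h. That fit gave 1 lower in the cortex at 24 h against saline, 1 higher and 2 lower at 12 h against 6 h and 1 lower at 24 h against 6 h, each in place of 0. With the compared groups alone, 0 were lower in the hippocampus at 6 h against saline and 1 at 24 h against 12 h. Limma-voom called 2 lower in the hippocampus at 12 h against 6 h and 2 in the cortex at 24 h against 6 h, where DESeq2 called 1 and the fit without the 4 cortical libraries 3. Without hippocampal A222 and A261, which held the most *Ttr*, 0 were lower at 6 h against saline and 2 at 12 h against 6 h. With the mouse as a replicate block, pairing the tissues, 0 in place of 1 was lower in the hippocampus than in the cortex after saline; the block changed no other count by over 1.5 times. Leaving out single libraries gave 0 to 1 lower in the hippocampus at 6 h against saline and at 12 h against 6 h, 0 to 1 higher at 24 h against 6 h, 4 to 6 higher in the cortex at 6 h and 3 to 5 at 12 h against saline, 0 to 1 lower there at 24 h against 6 h, and 0 to 1 lower between the tissues. Apart from the fits of fewer libraries or groups, which hold fewer samples, the cause was not tested. Depth limits *Tnf*, with 3 and 2 saline counts in the 2 tissues, and where an arm kept 2 libraries they were assumed to vary like the other groups.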
